A study of Mus musculus with 16 samples.

Results

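The 45 genes described here encode actins, actin-binding and contractile proteins and components of focal adhesions, many of them known targets of serum response factor (SRF), together with Srf itself and its cofactor Myocd. They were picked by gene symbol from a table of 27179 entries, and all 45 were present. Of these, 44 reached a normalized count of at least 10 in at least 4 of the 16 libraries and were tested among 14005 genes. The exception was the cardiac actin Actc1, and Myocd passed only through its 4 DPP4_neg vehicle libraries. Its place in every count below that uses those libraries therefore follows from the filter and carries no support. The libraries were made from 500 ng of total RNA each, from PDGFRb+ cells that had been isolated by flow cytometry from adipose tissue of C57BL/6 mice, inguinal white fat per the series' design text, and then grown in medium with 10% FBS. The groups were DPP4_pos adipose progenitor cells (APCs) given isoproterenol, DPP4_pos APCs given vehicle, DPP4_neg APCs given isoproterenol and DPP4_neg APCs given vehicle, with 4 libraries each. Isoproterenol, an agonist of beta-adrenergic receptors, was applied for 4 h at 10 mM per the labels, a unit far above the doses usual in culture, and the vehicle was PBS. All groups thus share the PDGFRb sort, the strain and a period of culture in serum, and neither the age of the mice nor whether the replicates came from separate mice or cultures is given in the sources used here. The p-values below therefore speak for the variation among these libraries, part or all of which may be technical.

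SRF binds DNA at the CArG box, a short AT-rich element between a CC and a GG, and switches on different genes with different partners. Myocardin and the related factors Mkl1 and Mkl2, which monomeric actin holds outside the nucleus, drive contractile and adhesion genes, while the ternary complex factors drive immediate early genes. In adipose tissue the contractile set marks mural cells of vessels and also progenitors that have taken up a myofibroblast-like state, and cAMP, the second messenger of beta-adrenergic receptors, is known to dissolve stress fibres in cultured cells.

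The promoter stretches below are shown because SRF is the factor that the list is named for. They were picked after the values were seen, as members that fell in both populations (Vcl, Fhl2, Myl9 and Acta2), that fell in DPP4_neg cells with a small difference in DPP4_pos cells (Srf and Actg1), or that moved in opposite directions (Lmcd1), and they leave out the members with the deepest fall and the largest rise, Lmod1 and Csrp2. They come from RefSeq windows of GRCm38.p6, each running from 250 bases before to 50 bases after an annotated start, and each stretch is written 5′ to 3′ on the gene's own strand. Capitals mark a CArG box, or a CArG-like match with 1 departing base, and in Lmcd1 also the cAMP response element TGACGTCA.
Srf chr17:46556163-46556272 (minus strand): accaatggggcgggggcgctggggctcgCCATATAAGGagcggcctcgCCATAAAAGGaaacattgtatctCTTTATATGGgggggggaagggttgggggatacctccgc
Actg1 chr11:120348496-120348605 (minus strand): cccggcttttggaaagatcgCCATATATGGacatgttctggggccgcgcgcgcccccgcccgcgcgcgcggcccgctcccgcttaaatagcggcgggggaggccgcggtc
Vcl chr14:20929148-20929237 (plus strand): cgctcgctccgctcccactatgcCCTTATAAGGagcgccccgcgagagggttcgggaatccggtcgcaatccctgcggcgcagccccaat
Fhl2 chr1:43163962-43164041 (minus strand): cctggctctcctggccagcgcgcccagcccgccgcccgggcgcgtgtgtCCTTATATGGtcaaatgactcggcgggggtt
Myl9 chr2:156775294-156775383 (plus strand): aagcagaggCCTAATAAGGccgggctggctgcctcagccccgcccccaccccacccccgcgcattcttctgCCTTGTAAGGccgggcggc
Acta2 chr19:34255374-34255483 (minus strand): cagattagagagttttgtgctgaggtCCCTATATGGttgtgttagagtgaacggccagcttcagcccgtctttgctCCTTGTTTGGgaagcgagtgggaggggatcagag
Lmcd1 chr6:112273533-112273657 (plus strand): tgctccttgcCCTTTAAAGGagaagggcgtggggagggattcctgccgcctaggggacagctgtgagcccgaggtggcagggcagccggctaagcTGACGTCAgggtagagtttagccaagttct
The Srf stretch holds 2 CArG boxes and 1 CArG-like match within 110 bases, Actg1, Vcl, Fhl2 and Lmcd1 hold 1 box each, Myl9 holds 1 box and 1 CArG-like match, and Acta2 holds 2 CArG-like matches. Windows were found for 39 of the 45 members, and Csrp2, Myocd, Actg2, Actb, Myh11 and Tagln were without one in the table used. On either strand, a CArG box lay in the windows of 13 of these 39 members (33.3%), against 488 of all 27025 genes with a window (1.81%). The list was compiled around SRF, so that share is a description of the list. Allowing 1 departing base, 21 of 39 members (53.8%) had a match, against 23.8% of all genes. TGACGTCA, which reads the same on both strands, was in 2 of the 39 members (5.13%), Lmcd1 and Myl6, and in 2.03% of all genes. A match is a run of letters in these windows and not a measured binding site.

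The sorting label held in the libraries. Dpp4 itself had 2104 to 2326 normalized counts in DPP4_pos isoproterenol and 2853 to 3227 in DPP4_pos vehicle libraries, against 7.89 to 13.1 in DPP4_neg isoproterenol and 15.3 to 24.6 in DPP4_neg vehicle libraries. Reads in genes came to between 9823799 and 28627223 per library. The isoproterenol libraries were the shallower ones among DPP4_pos cells, with 9823799 to 16563940 reads against 17189166 to 20425332 with vehicle, and among DPP4_neg cells they had 10191846 to 22121496 against 16479650 to 28627223.

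As a sum, the 45 genes took a far smaller part of the DPP4_pos than of the DPP4_neg transcriptome, and isoproterenol lowered the sum in DPP4_neg cells. The sum was 171520 ± 4391 normalized counts in DPP4_pos isoproterenol and 169660 ± 5269 in DPP4_pos vehicle libraries, against 391195 ± 4538 in DPP4_neg isoproterenol and 649543 ± 16445 in DPP4_neg vehicle libraries (SD, n = 4 each). As a share of all reads in genes this was 0.926% and 1.11% in DPP4_pos cells with isoproterenol and with vehicle, and 2.42% and 4.06% in DPP4_neg cells with isoproterenol and with vehicle. The sum is carried by a few genes of very high level, so the members are described below by role. In bulk RNA, fewer cells of a type and less RNA per cell cannot be told apart, and this touches every difference that follows.

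In DPP4_neg cells, isoproterenol lowered nearly the whole set. Of 44 members tested, 39 fell and 4 rose, and 20 fell and 2 rose by at least 2-fold. Among all genes tested, 33.6% fell and 32.1% rose, and 8.99% fell and 6.27% rose by at least 2-fold. The median difference was −0.96 on the log2 scale over the members and −0.02 over all genes tested. The members that rose were Csrp2, Synpo2, Cald1 and Tpm3, and Tagln2 was not called. The value for Tpm3 was 0.08, and its call was lost with the replicate block, without a filter on low values, with quantile normalization, with scaling by library totals and with only the groups compared.

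In DPP4_pos cells the set split. Of the 44 members, 32 fell and 12 rose, against 43.3% and 39.4% of all genes tested, and 16 fell and 5 rose by at least 2-fold, against 19.2% and 11.5%. The median was −0.62 over the members and −0.05 over all genes. Csrp2, Synpo2, Cald1 and Tpm3 rose here too. A further 7, namely Lmcd1, Pdlim7, Mylk, Flna, Tpm4, Actg1 and Srf, rose in DPP4_pos cells and fell in DPP4_neg cells, where Tpm4 turned to 0.05 with quantile normalization, and Tagln2 rose in DPP4_pos cells. The other 32 fell in both. Scaling by library totals moved the median of all genes in this comparison to −0.33, under which Actg1 stood at −0.04 and Srf at −0.13, a called fall for Srf, or 0.28 and 0.19 above that median, and quantile normalization turned Actg1 to −0.10.

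**Figure D1:**
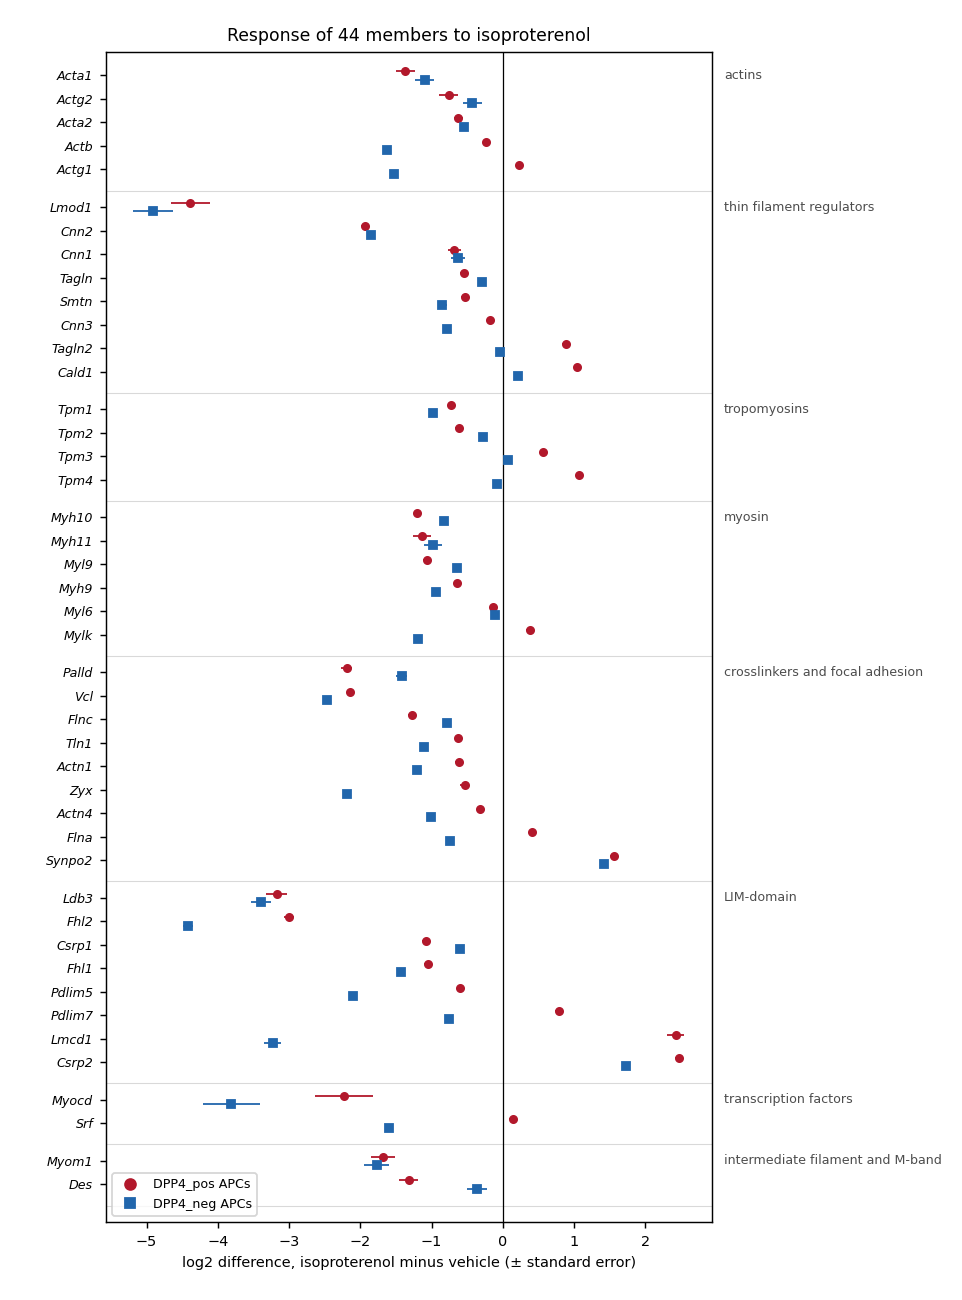
Log2 differences, isoproterenol minus vehicle, of each tested member in DPP4_pos cells and in DPP4_neg cells, ordered by role, with bars for the standard error of the limma fit over 16 libraries. Most points lie below 0 in both populations, Lmcd1 lies at 2.43 in DPP4_pos and at −3.23 in DPP4_neg cells, and the small positive values of Srf and Actg1 in DPP4_pos cells turn negative with scaling by library totals.

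The difference between the responses was tested directly. It was positive, that is the response in DPP4_pos cells lay above that in DPP4_neg cells, for 25 of 44 members, and negative for 8. Among all genes tested 62.6% differed, 31.6% positive and 31.0% negative, and the medians were 0.35 for the members and −0.02 for all genes. By at least 2-fold, 12 members were positive and 0 negative, against 6.59% and 9.05% of all genes. Lmcd1 differed by 5.66 ± 0.17 (limma adjusted p = 1.1e-16), and Actg1, Srf, Zyx, Mylk, Myocd, Pdlim7, Pdlim5, Fhl2, Actb, Tpm4 and Flna differed by 1.15 to 1.75, with Myocd among them through the libraries that passed it. The negative ones were Des, Palld, Flnc, Csrp1, Myl9, Myh10, Tpm2 and Tagln, from −0.96 to −0.25. The balance moved with the scaling: it was 24 positive and 13 negative with quantile normalization, and 20 and 15 with scaling by library totals, which placed the median of all genes at −0.28.

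Between the populations, the members were lower in DPP4_pos cells almost without exception. Under vehicle 43 of 44 were lower and 0 higher, against 35.0% and 31.6% of all genes tested, and 38 were lower by at least 2-fold, against 7.03%, and 0 were higher by that much, against 8.79%. The median was −1.78 over the members and −0.01 over all genes. The remaining gene, Synpo2, differed by −0.08 ± 0.05 (limma adjusted p = 0.21). Under isoproterenol 38 were lower and 3 higher, against 37.0% and 37.4% of all genes, and 26 were lower by at least 2-fold, against 10.1%, and 0 were higher by that much, against 8.61%. The median was −1.28 over the members and 0.00 over all genes. The 3 that were higher under isoproterenol, Zyx, Srf and Lmcd1, were all lower under vehicle, while Pdlim7, Tpm3 and Synpo2 were not called, at −0.01, 0.05 and 0.06. With scaling by library totals, where the median of all genes was −0.20, Tpm3 stood at −0.15, Synpo2 at −0.14 and Pdlim7 at −0.21, and all were called lower. With quantile normalization Tpm3 (−0.18) and Pdlim7 (−0.21) were called lower, while Synpo2 stood at −0.086 without a call. The comparisons within a population and between populations use the same libraries, so they are not independent of each other.

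**Figure D2:**
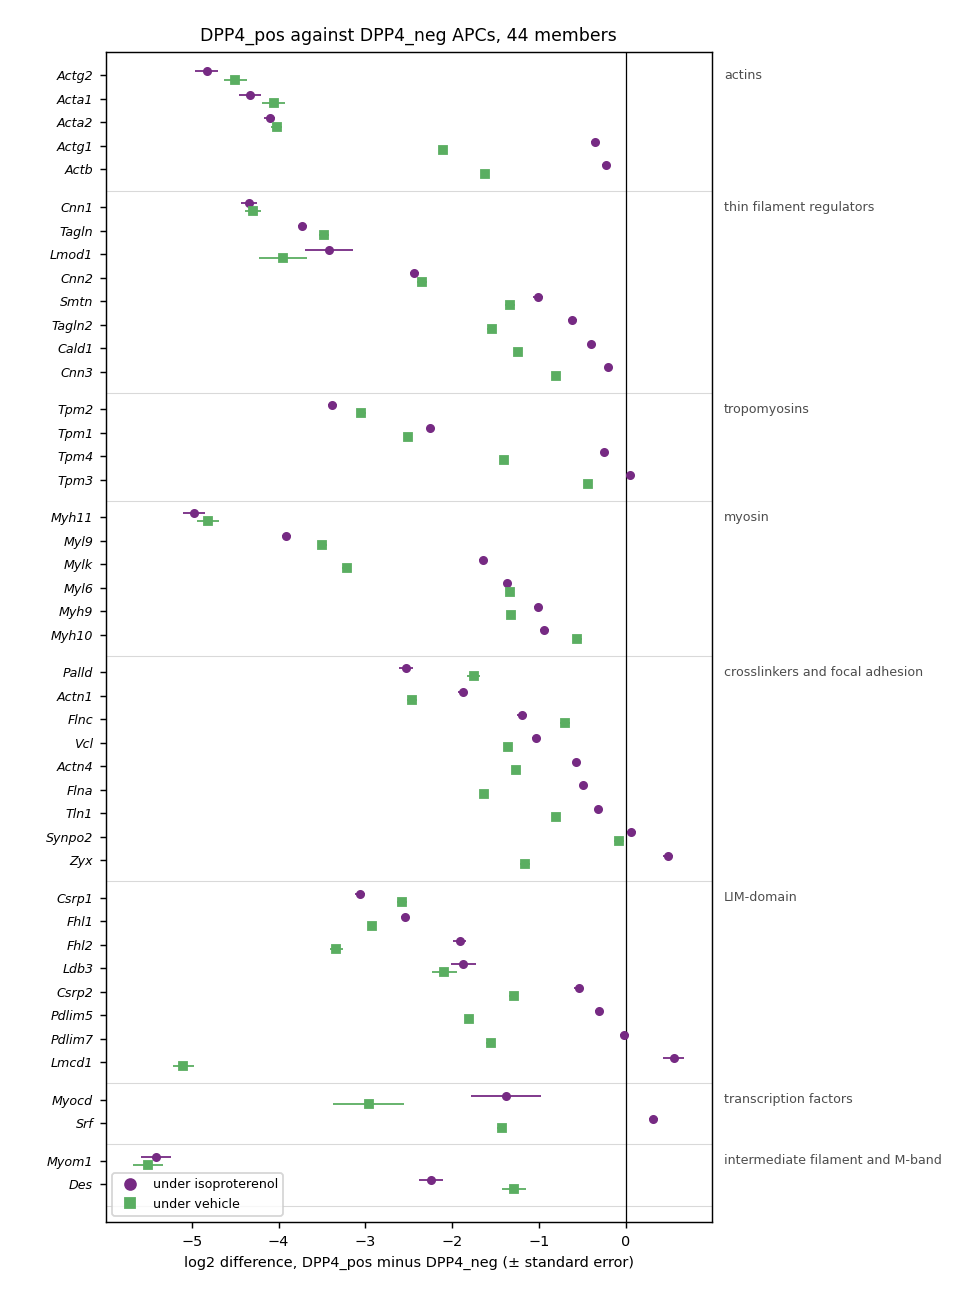
Log2 differences, DPP4_pos minus DPP4_neg, of each tested member under isoproterenol and under vehicle, ordered by role, with bars for the standard error of the limma fit. Every value under vehicle lies below 0, from −5.50 for Myom1 to −0.08 for Synpo2, while under isoproterenol Zyx, Srf and Lmcd1 lie above 0 at 0.49, 0.32 and 0.56.

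Of the transcription factors, Srf fell in DPP4_neg cells, and its direction in DPP4_pos cells depended on the scaling. It had 637, 657, 713 and 603 normalized counts in DPP4_pos isoproterenol libraries, against 647, 569, 569 and 579.6 in DPP4_pos vehicle libraries. In DPP4_neg cells Srf had 534, 514, 527 and 516 with isoproterenol, against 1618, 1549, 1575 and 1616 with vehicle. The DPP4_neg groups were far apart, a 3.04-fold fall (−1.60 ± 0.05, limma adjusted p = 2.5e-17), while the DPP4_pos groups overlapped. The DPP4_pos difference of 0.14 ± 0.05 was called at a limma adjusted p of 0.013, but it lost its call with TMM factors (0.10), with edgeR on recovered reads (0.10), with quantile normalization (0.04) and without DPP4_pos isoproterenol replicate 3 (0.10). With scaling by library totals the DPP4_pos difference was −0.13, a fall at a limma adjusted p of 0.019. Under vehicle Srf was 2.69-fold lower in DPP4_pos cells, and under isoproterenol it was 1.25-fold higher there.

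Myocd, the muscle cofactor of SRF, was close to the limit of detection outside DPP4_neg vehicle libraries. It had 1.12, 0, 1.46 and 0 normalized counts in DPP4_pos isoproterenol libraries, against 9.86, 4.46, 4.43 and 6.76 in DPP4_pos vehicle libraries. In DPP4_neg cells Myocd had 1.62, 3.67, 1.58 and 6.56 with isoproterenol, against 50.3, 52.6, 58.2 and 55.5 with vehicle. Neither pair of groups overlapped, which for DPP4_neg cells carries no support, since the vehicle libraries there are those that passed the filter. Over a group these were 2 reads in DPP4_pos isoproterenol, 30 in DPP4_pos vehicle, 13 in DPP4_neg isoproterenol and 306 in DPP4_neg vehicle libraries. Scaled for depth, the ratio of isoproterenol to vehicle was 0.119 in DPP4_pos cells (95% counting interval 0.0138 to 0.468) and 0.0596 in DPP4_neg cells (0.0314 to 0.103). The ratio of DPP4_pos to DPP4_neg was 0.229 under isoproterenol (0.0251 to 1.01) and 0.115 under vehicle (0.0763 to 0.168). These intervals cover counting error only. The ratios 0.0596 and 0.115 use the DPP4_neg vehicle libraries, through which Myocd passed the filter. Their intervals therefore describe the counts and carry no support for a difference. Fitted results of Myocd are counted and listed in other paragraphs. They carry no support, since Myocd entered the fit only through the group where it is high.

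The other SRF cofactors and ternary complex factors moved less than Srf in DPP4_neg cells, while in DPP4_pos cells several of them moved more than Srf. Mkl1 averaged 522 ± 21.9 normalized counts in DPP4_pos isoproterenol and 613 ± 39.2 in DPP4_pos vehicle libraries, against 611 ± 61.7 in DPP4_neg isoproterenol and 1261 ± 51.5 in DPP4_neg vehicle libraries. Its response was −0.23 in DPP4_pos and −1.05 in DPP4_neg cells. Mkl2 responded by −0.39 in DPP4_pos and −0.33 in DPP4_neg cells. Of 7 genes in the list, Myocd included, 5 fell and 2 rose in DPP4_pos cells, and 5 fell and 1 rose in DPP4_neg cells. Among all genes tested, 43.3% fell and 39.4% rose in DPP4_pos cells, and 33.6% fell and 32.1% rose in DPP4_neg cells. Elk4 rose by 0.74 in DPP4_pos cells and stood at −0.08 in DPP4_neg cells, Elk3 rose by 0.13 in DPP4_pos and by 0.59 in DPP4_neg cells, Elk1 fell in both (−0.41 in DPP4_pos and −0.37 in DPP4_neg cells), as did Scai, a repressor of Mkl1 (−1.0 and −0.40).

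Acta2 and Actb were among the members with the highest normalized counts, a scale that also depends on transcript length. The smooth muscle actin Acta2 had 4522, 4115, 3716 and 3579.7 normalized counts in DPP4_pos isoproterenol libraries, against 6827, 5735, 5893 and 6049.9 in DPP4_pos vehicle libraries. In DPP4_neg cells Acta2 had 66949, 72237, 66336 and 67181 with isoproterenol, against 99636, 96999.7, 95445 and 105636 with vehicle. No group overlapped another. Isoproterenol lowered Acta2 by 1.54-fold in DPP4_pos cells and by 1.46-fold in DPP4_neg cells, and the difference between these responses was −0.08 ± 0.09 (limma adjusted p = 0.44). The populations stood further apart, with Acta2 lower in DPP4_pos cells by 17.2-fold under isoproterenol and by 16.3-fold under vehicle.

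The cytoplasmic actin Actb, by contrast, fell mainly in DPP4_neg cells. It had 20969, 20921, 19053 and 20399.8 normalized counts in DPP4_pos isoproterenol libraries, against 24979, 22689, 23791 and 23973 in DPP4_pos vehicle libraries. In DPP4_neg cells Actb had 24143, 24874, 24172 and 22163 with isoproterenol, against 74192, 72387, 72363 and 74868 with vehicle. The DPP4_neg vehicle libraries stood alone at a level 3.08-fold above the other DPP4_neg group, and isoproterenol brought DPP4_neg cells to within 1.17-fold of DPP4_pos cells. The difference between the responses was 1.39 ± 0.06 (limma adjusted p = 1.9e-14). The other cytoplasmic actin, Actg1, averaged 2693 ± 108 in DPP4_pos isoproterenol and 2292 ± 62.6 in DPP4_pos vehicle libraries, against 3449.8 ± 209 in DPP4_neg isoproterenol and 9891 ± 276 in DPP4_neg vehicle libraries. It fell by 2.87-fold in DPP4_neg cells, and in DPP4_pos cells it stood at 0.23, a direction that turned with scaling by library totals and with quantile normalization.

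The sarcomeric and enteric actins were rarer. The skeletal muscle actin Acta1 had 18, 20.9, 16.1 and 16.9 normalized counts in DPP4_pos isoproterenol libraries, against 44.8, 56.5, 39.9 and 51.5 in DPP4_pos vehicle libraries. In DPP4_neg cells Acta1 had 381, 382, 311 and 457 with isoproterenol, against 922, 737, 689 and 919.5 with vehicle. The groups did not overlap, and Acta1 fell by 2.58-fold in DPP4_pos and by 2.13-fold in DPP4_neg cells. The enteric smooth muscle actin Actg2 had 101, 127, 61.4 and 86.4 in DPP4_pos isoproterenol libraries, against 170.3, 162, 141 and 147 in DPP4_pos vehicle libraries. In DPP4_neg cells Actg2 had 2720.2, 2545, 2565 and 2617 with isoproterenol, against 3614, 3374, 3164 and 3975 with vehicle. Actg2 was lower in DPP4_pos cells by 28.4-fold under isoproterenol and by 22.6-fold under vehicle, the widest gap among the actins in either condition. The cardiac actin Actc1 was below the limit for testing, with 0 reads in DPP4_pos isoproterenol, 4 in DPP4_pos vehicle, 13 in DPP4_neg isoproterenol and 63 in DPP4_neg vehicle libraries.

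Per kilobase of exon, the make-up of the actin pool differed between the populations. Acta2 made up 17.3% of the actin signal in DPP4_pos isoproterenol and 22.0% in DPP4_pos vehicle libraries, against 71.9% in DPP4_neg isoproterenol and 57.1% in DPP4_neg vehicle libraries. For Actb the shares were 72.4% and 70.2% in DPP4_pos cells with isoproterenol and with vehicle, and 20.6% and 34.6% in DPP4_neg cells with isoproterenol and with vehicle. Actg1 took 9.67% in DPP4_pos isoproterenol and 6.80% in DPP4_pos vehicle libraries, against 3.01% in DPP4_neg isoproterenol and 4.70% in DPP4_neg vehicle libraries. The coding sequences of the 6 actins are 81.5% to 88.7% identical, with shared runs of up to 77 bases, so the division of reads among them is uncertain.

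**Figure D3:**
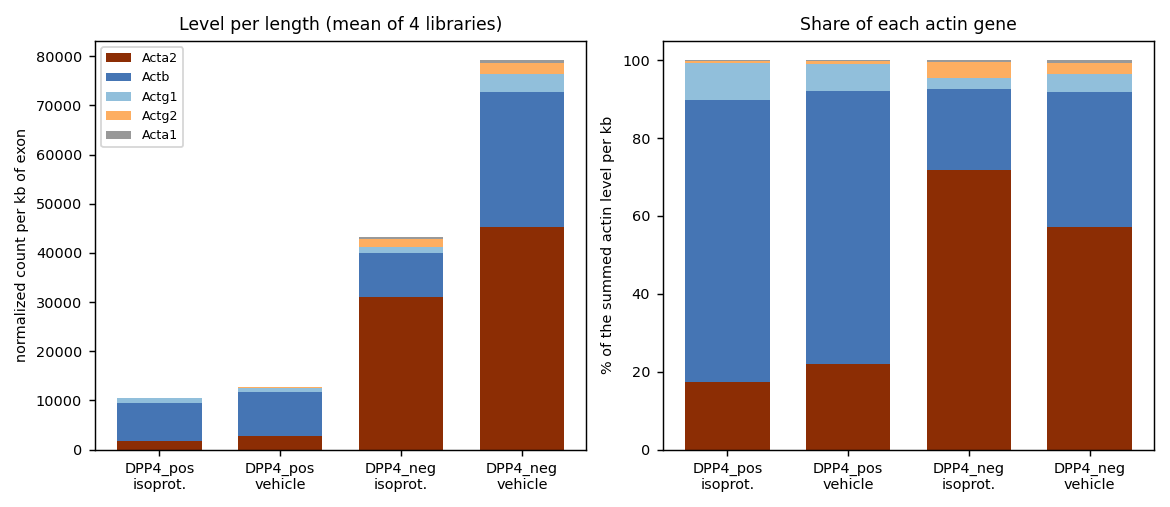
Stacked bars of the mean level of 5 actins in normalized counts per kilobase of exon (left) and of their share in the summed actin level in percent (right), for the 4 groups, 4 libraries each. Actb takes most of the signal in both DPP4_pos groups and Acta2 in both DPP4_neg groups, where its share is 71.9% with isoproterenol and 57.1% with vehicle.

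Among the regulators of thin filaments, 6 of 8 fell in each population, against 43.3% of all genes tested in DPP4_pos and 33.6% in DPP4_neg cells. The transgelin gene Tagln, a marker of smooth muscle, had 3531, 3281, 3081 and 2853 normalized counts in DPP4_pos isoproterenol libraries, against 4935, 4388, 4639 and 4579 in DPP4_pos vehicle libraries. In DPP4_neg cells Tagln had 40418, 44127, 42213 and 41608 with isoproterenol, against 49917, 51109, 50087 and 55457 with vehicle. The groups did not overlap, and the falls of 1.46-fold in DPP4_pos and 1.23-fold in DPP4_neg cells were small beside the gap between the populations, in which DPP4_pos cells were 13.2-fold lower under isoproterenol and 11.1-fold lower under vehicle. Calponin Cnn1, a brake on smooth muscle myosin, had 227, 193, 158 and 175 in DPP4_pos isoproterenol libraries, against 339, 303, 294 and 264 in DPP4_pos vehicle libraries. In DPP4_neg cells Cnn1 had 3931, 4054, 3246 and 4061 with isoproterenol, against 6192, 5492, 5412 and 6527 with vehicle. Its groups were again separate, and it fell by 1.6-fold in DPP4_pos and by 1.55-fold in DPP4_neg cells.

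Leiomodin Lmod1, which nucleates actin filaments in smooth muscle, had the deepest fall of all members in both populations. It had 12.4, 8.71, 5.85 and 1.88 normalized counts in DPP4_pos isoproterenol libraries, against 165, 137, 149 and 142 in DPP4_pos vehicle libraries. In DPP4_neg cells Lmod1 had 71.3, 73.4, 64.7 and 94.5 with isoproterenol, against 2369, 2157, 2199 and 2451 with vehicle. Lmod1 thus fell by 20.9-fold in DPP4_pos (−4.39 ± 0.28) and by 30.1-fold in DPP4_neg cells (−4.91 ± 0.28), and its level in DPP4_neg cells under isoproterenol was below that of DPP4_pos cells under vehicle. The DPP4_pos isoproterenol level rests on 21 reads. The difference between the Lmod1 responses was 0.52 ± 0.39 (limma adjusted p = 0.25). It was called with a pseudocount of 5 (1.11), with quantile normalization (0.97) and without DPP4_pos isoproterenol replicate 4 (0.96). The ubiquitous calponin Cnn2 fell by 3.83-fold in DPP4_pos and by 3.59-fold in DPP4_neg cells. Cnn3, the acidic calponin, fell by 1.13-fold and 1.72-fold, and smoothelin Smtn by 1.44-fold and 1.80-fold. Caldesmon Cald1 rose by 2.07-fold in DPP4_pos and by 1.16-fold in DPP4_neg cells. Tagln2, the transgelin of non-muscle cells, rose by 1.85-fold in DPP4_pos cells and stood at −0.04 ± 0.05 in DPP4_neg cells (limma adjusted p = 0.47), a difference between responses of 0.93 ± 0.07.

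**Figure D4:**
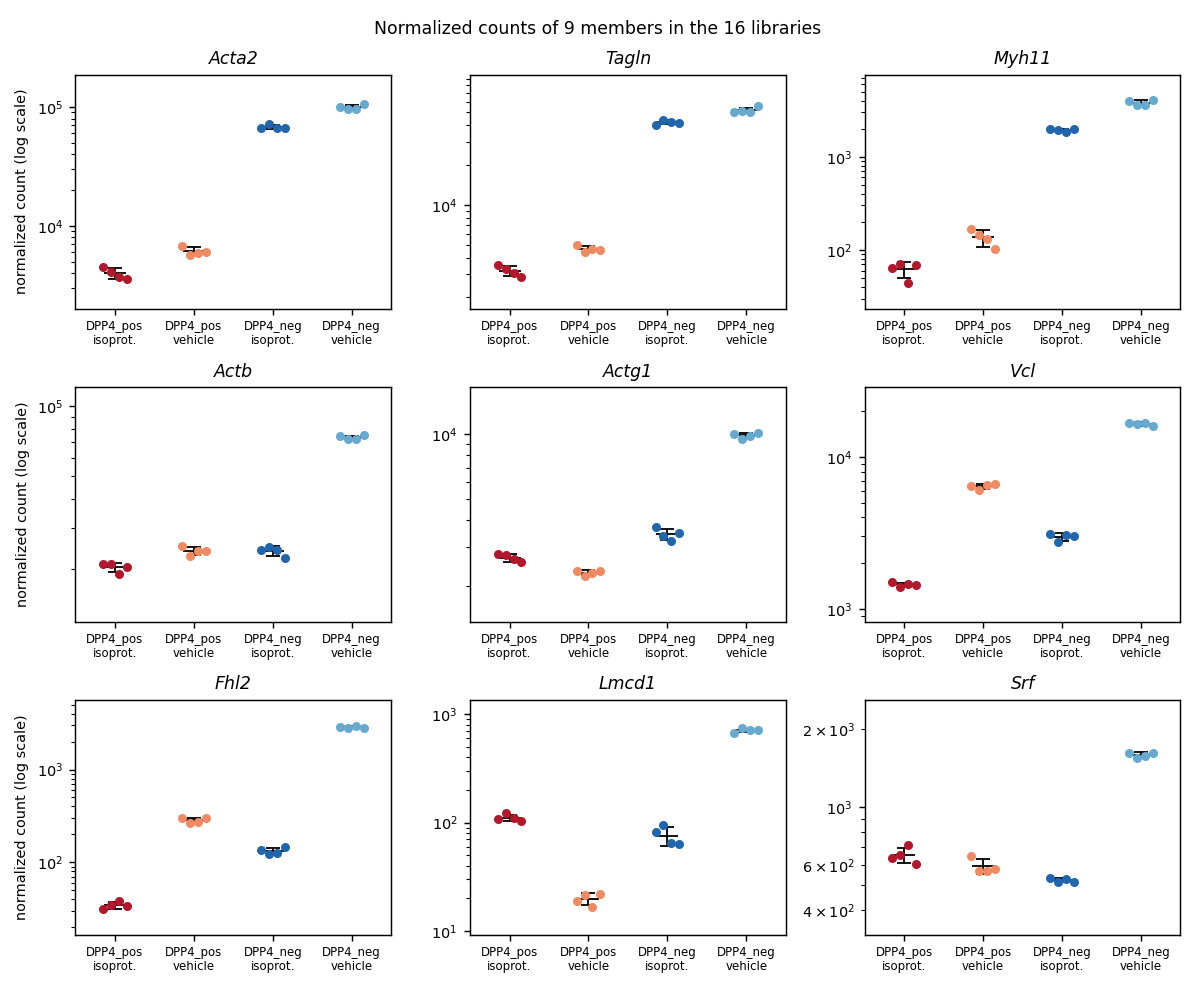
Normalized counts of 9 members (Acta2, Tagln, Myh11, Actb, Actg1, Vcl, Fhl2, Lmcd1 and Srf) in the 16 libraries, on log scales, with a point for each library and a line with bars for the group mean ± SD, from left to right DPP4_pos isoproterenol, DPP4_pos vehicle, DPP4_neg isoproterenol and DPP4_neg vehicle. The DPP4_neg vehicle libraries are the highest for all 9, and Lmcd1 is lowest in DPP4_pos vehicle libraries, at 16.8 to 22.0.

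The tropomyosins, which run along actin filaments and gate myosin, parted by isoform. Tpm1 had 2783, 2808, 2661 and 2486 normalized counts in DPP4_pos isoproterenol libraries, against 4692, 4284, 4379.5 and 4373 in DPP4_pos vehicle libraries. In DPP4_neg cells Tpm1 had 12743, 12771, 12826 and 12841 with isoproterenol, against 25129, 24756, 24497 and 26339 with vehicle. It fell by 1.65-fold in DPP4_pos and by 1.97-fold in DPP4_neg cells, with groups that did not overlap. The difference between these responses was 0.25, and it turned to −0.19 with quantile normalization (limma adjusted p = 0.0051) and to −0.0087 with scaling by library totals. Tpm2, the other isoform of muscle, had 1383, 1214, 1259.7 and 1193 in DPP4_pos isoproterenol libraries, against 2099, 1876, 1848 and 1892 in DPP4_pos vehicle libraries. In DPP4_neg cells Tpm2 had 12014, 13993, 13807 and 12809 with isoproterenol, against 15637, 15769, 15001 and 17279.9 with vehicle. Its falls were 1.53-fold and 1.21-fold, and DPP4_pos cells were 10.4-fold lower under isoproterenol and 8.25-fold lower under vehicle.

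The isoforms typical of non-muscle cells did otherwise. Tpm4 had 23456, 22952, 22276 and 23615 normalized counts in DPP4_pos isoproterenol libraries, against 11353, 10678, 10977 and 10936 in DPP4_pos vehicle libraries. In DPP4_neg cells Tpm4 had 27666, 27703, 26783 and 27375 with isoproterenol, against 28793, 29327, 28876 and 29127 with vehicle. Tpm4 therefore rose by 2.10-fold in DPP4_pos cells, to a level near that of DPP4_neg cells, while the DPP4_neg difference was −0.08 ± 0.03 and turned to 0.05 with quantile normalization. Tpm3 rose by 1.47-fold in DPP4_pos cells and by 1.06-fold in DPP4_neg cells, where the groups overlapped and the call was lost under many of the alternatives, among them the fit without filter on low values.

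Of the myosin genes, 5 of 6 fell in DPP4_pos and all 6 in DPP4_neg cells, against 43.3% and 33.6% of all genes tested. The smooth muscle heavy chain Myh11 had 64.0, 69.7, 43.8 and 69.5 normalized counts in DPP4_pos isoproterenol libraries, against 168, 145, 132 and 101 in DPP4_pos vehicle libraries. In DPP4_neg cells Myh11 had 1970.3, 1932, 1858 and 1989.9 with isoproterenol, against 4003, 3598, 3636 and 4042 with vehicle. It fell by 2.19-fold in DPP4_pos and by 1.97-fold in DPP4_neg cells, and DPP4_pos cells were 31.4-fold lower under isoproterenol and 28.2-fold lower under vehicle. The non-muscle heavy chain Myh10 had 959.5, 801, 890.0 and 951 in DPP4_pos isoproterenol libraries, against 2068, 2063, 2053 and 2067 in DPP4_pos vehicle libraries. In DPP4_neg cells Myh10 had 1744, 1571, 1749 and 1831 with isoproterenol, against 3089.8, 2999, 2959 and 3106 with vehicle. Its fall was larger in DPP4_pos cells, 2.30-fold against 1.76-fold, with a difference between responses of −0.38 ± 0.07.

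Myosin light chain kinase, Mylk, which switches on contraction by phosphorylating the regulatory light chain, moved in opposite directions. It had 1181, 1189.9, 1162 and 1114 normalized counts in DPP4_pos isoproterenol libraries, against 894, 913, 887 and 876 in DPP4_pos vehicle libraries. In DPP4_neg cells Mylk had 3795, 4050.4, 3355 and 3340.5 with isoproterenol, against 8569, 8317, 8198 and 8122 with vehicle. Mylk thus rose by 1.30-fold in DPP4_pos and fell by 2.29-fold in DPP4_neg cells, and the responses differed by 1.58 ± 0.07 (limma adjusted p = 2.5e-14). The regulatory light chain Myl9, its substrate, fell by 2.09-fold in DPP4_pos and by 1.57-fold in DPP4_neg cells and was 15-fold lower in DPP4_pos cells under isoproterenol. The non-muscle heavy chain Myh9 fell by 1.56-fold and 1.92-fold, a difference between responses of 0.30 that turned to −0.14 with quantile normalization (limma adjusted p = 0.026). The essential light chain Myl6 fell by 1.10-fold in DPP4_pos and by 1.08-fold in DPP4_neg cells, where its groups overlapped and the call was lost without any of DPP4_neg isoproterenol replicate 1, DPP4_neg vehicle replicate 2 or DPP4_neg vehicle replicate 4, at −0.06, −0.10 and −0.08.

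Crosslinkers of actin and proteins of focal adhesions, the sites where integrins couple to stress fibres, held some of the deepest falls. Vinculin, Vcl, had 1501, 1403, 1453 and 1445 normalized counts in DPP4_pos isoproterenol libraries, against 6418, 6108, 6547 and 6685 in DPP4_pos vehicle libraries. In DPP4_neg cells Vcl had 3109.7, 2743, 3060.2 and 3022 with isoproterenol, against 16789, 16454, 16735 and 15883 with vehicle. It fell by 4.44-fold in DPP4_pos (−2.15 ± 0.04) and by 5.52-fold in DPP4_neg cells (−2.47 ± 0.04), with groups far apart. Palladin, Palld, which scaffolds stress fibres, had 355, 275, 278 and 353 in DPP4_pos isoproterenol libraries, against 1378, 1436, 1411 and 1515 in DPP4_pos vehicle libraries. In DPP4_neg cells Palld had 1988, 1656, 1633 and 2002 with isoproterenol, against 4842, 4882, 4899 and 4702 with vehicle. Its fall was the larger in DPP4_pos cells, 4.57-fold against 2.67-fold, a difference between responses of −0.78 ± 0.11 (limma adjusted p = 2.8e-06).

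Alpha-actinin Actn1 had 2271, 2101, 2015 and 2091 normalized counts in DPP4_pos isoproterenol libraries, against 3492, 3067, 3087 and 3384 in DPP4_pos vehicle libraries. In DPP4_neg cells Actn1 had 8136, 7968, 6918 and 8236 with isoproterenol, against 18292, 17295, 17412 and 18806 with vehicle. It fell by 1.54-fold in DPP4_pos and by 2.30-fold in DPP4_neg cells, and its relative Actn4 by 1.24-fold and 2.01-fold. Talin Tln1, which activates integrins, fell by 1.54-fold and 2.14-fold. Zyxin, Zyx, which gathers at strained stress fibres, fell by 1.45-fold in DPP4_pos and by 4.55-fold in DPP4_neg cells, and this put its mean of 2484 ± 142 in DPP4_pos isoproterenol libraries above the 1775 ± 168 of DPP4_neg isoproterenol libraries. Under vehicle the order was the other way, with 3598 ± 138 in DPP4_pos and 8060.2 ± 536 in DPP4_neg libraries.

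The filamins, which crosslink actin into networks, moved apart. Flna rose by 1.33-fold in DPP4_pos and fell by 1.67-fold in DPP4_neg cells, whereas the muscle filamin Flnc fell by 2.42-fold and 1.71-fold. Synpo2, an actin-bundling partner of filamin and alpha-actinin, stood out among the members in being alike in the populations and higher with isoproterenol in both. It averaged 1078 ± 61.9 in DPP4_pos isoproterenol and 363 ± 21.5 in DPP4_pos vehicle libraries, against 1033 ± 42.4 in DPP4_neg isoproterenol and 383 ± 19.9 in DPP4_neg vehicle libraries. These are rises of 2.96-fold and 2.69-fold, and the responses differed by 0.14 ± 0.08 (limma adjusted p = 0.12).

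The LIM-domain genes covered the widest range of responses. Fhl2, a LIM-only cofactor that shuttles between adhesions and the nucleus, had 31.5, 34.8, 38.0 and 33.8 normalized counts in DPP4_pos isoproterenol libraries, against 302, 263, 269 and 299 in DPP4_pos vehicle libraries. In DPP4_neg cells Fhl2 had 136, 123, 126 and 146 with isoproterenol, against 2892, 2790.4, 2956 and 2822 with vehicle. Its falls were 8.01-fold in DPP4_pos (−3.00 ± 0.07) and 21.5-fold in DPP4_neg cells (−4.42 ± 0.07), and the level in DPP4_neg cells with isoproterenol lay below that of DPP4_pos cells with vehicle. The Z-disc protein gene Ldb3 had 13.5, 6.97, 8.77 and 9.40 in DPP4_pos isoproterenol libraries, against 87.8, 95.9, 99.2 and 89.6 in DPP4_pos vehicle libraries. In DPP4_neg cells Ldb3 had 38.9, 41.1, 34.7 and 34.1 with isoproterenol, against 387, 418, 411 and 382 with vehicle. It fell by 9.03-fold and 10.5-fold, with a difference between responses of 0.22 ± 0.21 (limma adjusted p = 0.37).

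Lmcd1, a LIM and cysteine-rich cofactor known to restrain GATA factors, was the member whose responses differed most. It had 108, 122, 109.6 and 103 normalized counts in DPP4_pos isoproterenol libraries, against 18.8, 21.6, 16.8 and 22.0 in DPP4_pos vehicle libraries. In DPP4_neg cells Lmcd1 had 81.8, 94.0, 64.7 and 63.0 with isoproterenol, against 675, 740.0, 715 and 708 with vehicle. Isoproterenol thus raised it by 5.39-fold in DPP4_pos and lowered it by 9.36-fold in DPP4_neg cells. DPP4_pos cells had 1.47-fold more Lmcd1 under isoproterenol and 34.3-fold less under vehicle, and no groups overlapped. Its promoter stretch above carries both a CArG box and TGACGTCA. The window of Myl6 also carries both, and Myl6 was lowered by 1.10-fold in DPP4_pos and by 1.08-fold in DPP4_neg cells.

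The cysteine-rich proteins of muscle went separate ways. Csrp1 had 803, 779, 646 and 680.2 normalized counts in DPP4_pos isoproterenol libraries, against 1599, 1457, 1567 and 1514 in DPP4_pos vehicle libraries. In DPP4_neg cells Csrp1 had 6037, 6309, 5847 and 6039 with isoproterenol, against 9208, 8959, 8587 and 9905 with vehicle. It fell by 2.12-fold in DPP4_pos and by 1.51-fold in DPP4_neg cells, and was 8.35-fold lower in DPP4_pos cells under isoproterenol. Csrp2 rose instead, by 5.57-fold in DPP4_pos (2.48 ± 0.05) and by 3.31-fold in DPP4_neg cells (1.73 ± 0.05), the largest rise of any member in each. Fhl1 fell by 2.07-fold and 2.69-fold. Of the enigma family, adaptors between actin and kinases, Pdlim5 fell by 1.51-fold in DPP4_pos and by 4.28-fold in DPP4_neg cells, and Pdlim7 rose by 1.73-fold in DPP4_pos and fell by 1.68-fold in DPP4_neg cells.

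The last pair were structural proteins of striated muscle. Myomesin Myom1, which links thick filaments at the M-band, had 12.4, 12.2, 16.1 and 28.2 normalized counts in DPP4_pos isoproterenol libraries, against 65.4, 58.7, 53.1 and 42.2 in DPP4_pos vehicle libraries. In DPP4_neg cells Myom1 had 718, 778, 707 and 729.8 with isoproterenol, against 2378, 2603, 2543 and 2487 with vehicle. Myom1 fell by 3.21-fold and 3.41-fold, and DPP4_pos cells were 42.6-fold lower under isoproterenol and 45.3-fold lower under vehicle, the widest gap of all members. Desmin Des, the intermediate filament of muscle, averaged 76.1 ± 18.6 in DPP4_pos isoproterenol and 187 ± 16.3 in DPP4_pos vehicle libraries, against 356 ± 12.5 in DPP4_neg isoproterenol and 461 ± 63.5 in DPP4_neg vehicle libraries. Its fall was 2.50-fold in DPP4_pos and 1.29-fold in DPP4_neg cells, where the call was lost without DPP4_neg isoproterenol replicate 3 (−0.35), DPP4_neg vehicle replicate 1 (−0.31) or DPP4_neg vehicle replicate 4 (−0.30).

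Set against the promoter windows, the 12 tested members with a CArG box all fell in DPP4_neg cells, with a median of −1.69, while of the 26 with a window but no box 22 fell and 3 rose, with a median of −0.78. In DPP4_pos cells 9 of the 12 fell and 3 rose, with a median of −1.22, and of the 26 without a box 18 fell and 8 rose, with a median of −0.61. Among all genes tested, 33.6% fell and 32.1% rose in DPP4_neg cells, and 43.3% fell and 39.4% rose in DPP4_pos cells. The 26 without a box include members with a CArG-like match, namely Acta2, Cald1, Flna, Flnc, Lmod1, Palld, Tpm1 and Tpm3. The split is therefore not one of genes with and without a possible SRF site. The counts with and without a box are over genes chosen as one list, and no test was made of them. The 3 with a box that rose in DPP4_pos cells were Lmcd1, Actg1 and Srf, and the directions of Actg1 and Srf turned with scaling by library totals.

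The genes that SRF drives with ternary complex factors moved the other way. All 8 immediate early genes examined rose in both populations, by medians of 1.39 in DPP4_pos and 1.81 in DPP4_neg cells. Among all genes tested, 39.4% rose in DPP4_pos and 32.1% in DPP4_neg cells. Egr1 averaged 3834.5 ± 378 normalized counts in DPP4_pos isoproterenol and 793 ± 110.1 in DPP4_pos vehicle libraries, against 2403 ± 315 in DPP4_neg isoproterenol and 389.9 ± 33.8 in DPP4_neg vehicle libraries. Egr2 rose by 1.09 and Egr3 by 1.22 on the log2 scale in DPP4_pos cells, and by 3.22 and 3.33 in DPP4_neg cells. Junb and Fos had the larger rises in DPP4_pos cells, 2.78 and 2.52, against 1.29 and 1.34 in DPP4_neg cells. Several of these genes are also known targets of CREB, the factor that cAMP activates.

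Further genes of focal adhesions and of the LIM families fell like the members. Of 30 genes, 22 fell and 5 rose in DPP4_pos cells, with a median of −0.58, against 43.3% and 39.4% of all genes tested. In DPP4_neg cells 25 fell and 4 rose, with a median of −1.04, against 33.6% and 32.1%. Sorbs2, an adaptor at stress fibres, had a log2 difference of −3.42 in DPP4_pos and of −4.49 in DPP4_neg cells. It was −2.15 and −2.96 for nexilin Nexn, −2.27 and −2.85 for Filip1l, and −2.55 and −1.22 for Pdlim2, in the same order. Enah, which promotes the growth of actin filaments, rose by 3.57 in DPP4_pos and by 1.88 in DPP4_neg cells.

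**Figure D5:**
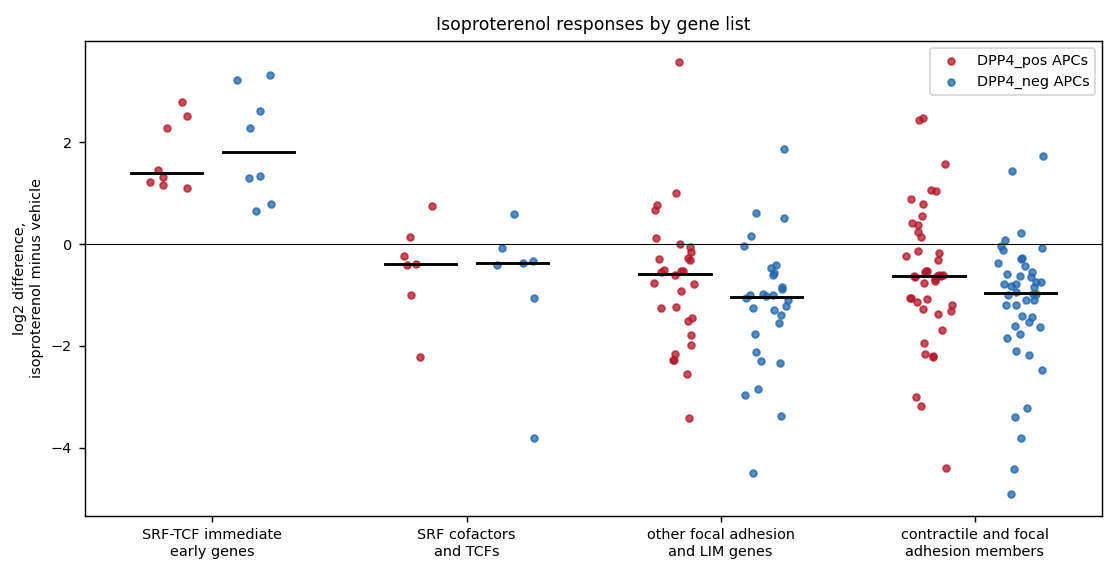
Log2 differences, isoproterenol minus vehicle, of the tested genes of 4 lists, the members among them, with a point for each gene and a bar for the median, DPP4_pos cells left of DPP4_neg cells. The immediate early genes lie above 0, at 1.39 in DPP4_pos and 1.81 in DPP4_neg cells, while the members lie at −0.62 and −0.96.

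Markers of other cells that carry these genes went in both directions. The 12 markers of mural cells that are not contractile genes, of which 11 were tested, summed to 1465 to 1603 normalized counts in DPP4_pos isoproterenol and 2686 to 2856 in DPP4_pos vehicle libraries, against 3606 to 3951 in DPP4_neg isoproterenol and 5029 to 5822 in DPP4_neg vehicle libraries. Of the 11, 7 were lower and 4 higher in DPP4_pos than in DPP4_neg cells under isoproterenol, with a median of −1.27, against 37.0% and 37.4% of all genes. Under vehicle 6 were lower and 2 higher, with a median of −0.48, against 35.0% and 31.6%. With isoproterenol 6 fell and 3 rose in DPP4_pos cells, with a median of −0.26, against 43.3% and 39.4% of all genes, and 6 fell and 1 rose in DPP4_neg cells, with a median of −0.50, against 33.6% and 32.1%. Among the 12 mural markers, Higd1b had at most 2 reads in any group and Rgs5 averaged 27.8 in DPP4_pos isoproterenol, 5.70 in DPP4_pos vehicle, 12.1 in DPP4_neg isoproterenol and 8.33 in DPP4_neg vehicle libraries. Both were low beside the sums above, which other markers of the list carried, so they do not stand for the list. The 13 skeletal muscle markers, 3 of them tested and Acta1 counted among them, summed to 40.1 to 52.6 in DPP4_pos isoproterenol and 87.7 to 112 in DPP4_pos vehicle libraries, against 333 to 503 in DPP4_neg isoproterenol and 734 to 952 in DPP4_neg vehicle libraries. Acta1, itself a member, had 311 to 457 and 689 to 922 in these DPP4_neg groups. It made up most of those sums, so they are not separate from the members. Of the 3 tested, 1 was higher and 1, Acta1, lower in DPP4_pos than in DPP4_neg cells under vehicle, against 31.6% and 35.0% of all genes. Under isoproterenol 0 were higher and 1, again Acta1, lower, against 37.4% and 37.0%. Myog, Pax7 and Ckm were at 0 in all 16 libraries. The part of mural or muscle cells in the differences between the populations was not tested.

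The 8 markers of PDGFRb+ stromal cells were all tested and summed to 459431 to 479387 normalized counts in DPP4_pos isoproterenol and 614323 to 622818 in DPP4_pos vehicle libraries, against 382914 to 432864 in DPP4_neg isoproterenol and 405069 to 416679 in DPP4_neg vehicle libraries. In DPP4_pos relative to DPP4_neg cells, 5 were higher and 2 lower under isoproterenol, with a median of 0.46, against 37.4% and 37.0% of all genes. Under vehicle 6 were higher and 2 lower, with a median of 1.30, against 31.6% and 35.0%. With isoproterenol 7 fell and 0 rose in DPP4_pos cells, with a median of −0.50, against 43.3% and 39.4% of all genes. In DPP4_neg cells 2 fell and 1 rose, with a median of −0.04, against 33.6% and 32.1%. The part of these shifts in the members' differences was not tested. The sorting gene Pdgfrb was present in all groups, at 2105 normalized counts in DPP4_pos isoproterenol and 7562 in DPP4_pos vehicle libraries, against 9028 in DPP4_neg isoproterenol and 11315 in DPP4_neg vehicle libraries. Sums of the other marker lists were low beside those of the members. The 9 endothelial markers summed to 1310 to 1435 in DPP4_pos isoproterenol and 1190 to 1256 in DPP4_pos vehicle libraries, against 243 to 308 in DPP4_neg isoproterenol and 213 to 247 in DPP4_neg vehicle libraries, and Pecam1 itself averaged at most 50.6 in a group. The 8 mesothelial markers summed to 124 to 190 and 120 to 173 in DPP4_pos cells with isoproterenol and with vehicle, and to 1303 to 1722 and 623 to 821 in DPP4_neg cells with isoproterenol and with vehicle. Msln had at most 2 reads in any group, so these sums came from other markers of that list. The 12 markers of macrophages and leukocytes overlapped in all groups, between 378 and 1648.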

How the data were processed

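RNA was sequenced from 16 libraries of sorted and cultured APCs, 4 per group. The authors deposited a normalized signal per gene and library, a read count divided by a size factor, and whole reads recovered from it came out whole within 0.001 for 100.0% of 280334 values above 0. The submitters' processing notes name DESeq2 1.6.3, featureCounts 1.4.6, HISAT2 2.0.1 and Trim Galore 0.4.1, with mm10 and GRCm38. Settings, annotation and strand are not given in the sources, so reads of overlapping genes cannot be told apart.

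The members and the gene lists were chosen with earlier results of these data known. Genes with a normalized count of at least 10 in at least 4 libraries, 14005 of 27179 entries, were fitted with limma 3.58.1 in R 4.3.3 (mean-variance trend) on log2(normalized count + 1), with 4 group means and no block. An adjusted p (Benjamini-Hochberg over all genes tested) under 0.05 counted as a rise or a fall. Differences are log2 ± SE or the fold of the fit, which understate changes of low genes, and means are ± SD. Entries without a symbol, 958, held 0.0926% of the normalized counts. All 45 members are named. Values in every library are given for Acta2, Actb, Tagln, Cnn1, Myh11, Tpm1, Vcl, Fhl2, Lmcd1, Srf and Myocd, and for the member of each role with the largest difference in each comparison between groups, among those with a mean of at least 50. Of the other lists, markers of cell types apart, the 3 called genes with the largest response in each population and a mean of at least 50 are named, with Mkl1 and Mkl2. Single markers of cell types were named by choice and not by this rule. The genes of 1 further list are not reported here. Alternatives were other pseudocounts, filters and scalings, edgeR 4.0.16 and DESeq2 1.42.0 on recovered reads, a replicate block, only the groups compared, and each library left out. Pairs of replicates differed beyond counting error, the ratio of chi-square to its degrees of freedom being 1.61 to 9.23. Levels per kilobase use exon lengths of GENCODE M21.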

Additional observations from a re-analysis of the deposited data

Results flagged for a closer look

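In 33 of 44 tested members the isoproterenol response differed between the populations. This was called by the interaction term of the limma fit (adjusted p under 0.05 over all genes tested). By the same term 62.6% of all genes tested differed, so such a call was common and not particular to the members. Differences are on the log2 scale, DPP4_pos response minus DPP4_neg response. Among actins and thin filament regulators they were 1.39 for Actb, 1.75 for Actg1, −0.25 for Tagln, 0.93 for Tagln2, 0.61 for Cnn3, 0.83 for Cald1 and 0.32 for Smtn. Among tropomyosins they were 0.25 for Tpm1, −0.34 for Tpm2, 0.48 for Tpm3 and 1.16 for Tpm4, and that of Tpm1 turned to −0.19 with quantile normalization (limma adjusted p = 0.0051) and to −0.0087 with scaling by library totals. The myosin genes gave 0.30 for Myh9, −0.38 for Myh10, −0.42 for Myl9 and 1.58 for Mylk, and that of Myh9 turned to −0.14 with quantile normalization (limma adjusted p = 0.026) and lost its call with scaling by library totals (0.042). Crosslinkers and adhesion genes gave 0.58 for Actn1, 0.70 for Actn4, 1.15 for Flna, −0.50 for Flnc, 0.32 for Vcl, 0.48 for Tln1, 1.65 for Zyx and −0.78 for Palld. Among the differences listed, Vcl turned to −0.038 and Tln1 lost its call (0.076) with quantile normalization, and with scaling by library totals Vcl (0.055), Smtn (0.055) and Fhl1 (0.12) lost theirs. LIM-domain genes gave 1.5 for Pdlim5, 1.54 for Pdlim7, −0.49 for Csrp1, 0.75 for Csrp2, 0.38 for Fhl1, 1.42 for Fhl2 and 5.66 for Lmcd1. Srf gave 1.75 and Des −0.96. Myocd gave 1.58, but it entered the fit only through the DPP4_neg vehicle libraries, where it is high, so that this call carries no support. The call was also lost with a pseudocount of 0.5 (limma adjusted p = 0.15), with edgeR (adjusted p = 0.51) and with DESeq2 (adjusted p = 0.46).

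In 9 cases a library lay apart from the other 3 of its group by Dixon's test, which chance alone does in about 1 in 20 groups. Each of the 44 tested members was examined in each of the 4 groups, and at that rate about as many cases would arise by chance. With isoproterenol, DPP4_neg replicate 2 was high for Acta2 (72237 normalized counts) and Csrp2 (6676), and DPP4_neg replicate 3 was low for Cnn1 (3246), Actn4 (7548) and Zyx (1525). With vehicle, DPP4_pos replicate 1 was high for Fhl1 (576) and Srf (647), DPP4_pos replicate 2 was low for Zyx (3393), and DPP4_neg replicate 4 was high for Actn4 (16634).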

How the results depend on the processing

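Counts of members called moved by more than 1.5 times in 1 place, the members with a negative difference between responses. These were 8 and became 13 with quantile normalization and 15 with scaling by library totals. Leaving out each library in turn gave 11 to 12 risen and 32 fallen members in DPP4_pos cells, 3 to 4 risen and 37 to 39 fallen in DPP4_neg cells, 3 higher and 38 lower in DPP4_pos than in DPP4_neg cells under isoproterenol, 0 and 43 under vehicle, and 25 to 26 and 8 to 9 for the difference between responses. Whether replicate numbers pair the libraries is not stated in the sources. Of 24 same-numbered pairs 1 correlated above 0.1 in its deviations, and 6 of 16 libraries correlated best with their own number. With 4 libraries per group such correlations cannot settle whether same-numbered libraries share a source. With the replicate block the counts were 12 risen and 32 fallen in DPP4_pos cells, 3 and 39 in DPP4_neg cells, 3 and 38 between populations under isoproterenol, 0 and 43 under vehicle, and 25 and 8 for the difference between responses.

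Single differences were counted once under each alternative, so the same difference can count several times. In 26 such cases the sign changed, most of them near 0, and the cause was not tested. With quantile normalization these were Tpm4 in DPP4_neg cells (0.054), Actg1 in DPP4_pos cells (−0.10), Tpm3 (−0.18) and Synpo2 (−0.086) between populations under isoproterenol, and, for the difference between responses, Acta1 (0.23), Actg2 (0.15), Cnn1 (0.24), Tpm1 (−0.19), Myh9 (−0.14), Myh11 (0.38) and Vcl (−0.038). With scaling by library totals they were Actg1 (−0.041) and Srf (−0.13) in DPP4_pos cells, Tpm3 (−0.15) and Synpo2 (−0.14) between populations under isoproterenol, and Tpm1 (−0.0087), Synpo2 (−0.12), Ldb3 (−0.031) and Myom1 (−0.16) for the difference between responses, and with edgeR Myom1 (−0.017). Leaving out a library turned 3 differences that were not called: Pdlim7 between populations under isoproterenol (range −0.057 to 0.014, above 0 without DPP4_pos isoproterenol replicate 4 or DPP4_neg isoproterenol replicate 2), and, for the difference between responses, Cnn1 (−0.14 to 0.031, above 0 without DPP4_pos isoproterenol replicate 3 or DPP4_pos vehicle replicate 1) and Myom1 (−0.16 to 0.22, below 0 without DPP4_pos isoproterenol replicate 4 or DPP4_pos vehicle replicate 4). In a further 39 cases, counted in the same way, a call was lost and in 21 gained, and in 5810 neither happened. Depth limits Myocd and Actc1, with 2 and 0 reads in DPP4_pos isoproterenol libraries, and also Lmod1 and Ldb3, with 21 and 27 there.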
